A study of Mus musculus with 7 samples.

Results

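Cytosolic ribosomal protein genes were described across 7 RNA sequencing libraries from mouse embryonic ventricles. They were chosen by name. The symbol had to be Rps or Rpl with a number and at most a short suffix, or Rplp0, Rplp1, Rplp2 or Rpsa. Names with -ps, the mark of a pseudogene, were left out, but Rps4l, for which GENCODE lists no protein-coding transcript, was kept. The name rule found 80 of the 13701 genes in the deposited count table, 33 of the small (40S) and 47 of the large (60S) subunit, and all 80 entered the tests. The study set out to find what loss of Hand1, a transcription factor of the developing left ventricle, does to gene expression in the heart. All ventricles were untreated, came from E11.5 embryos of mixed background and gave polyA RNA. Hand1 knockout ventricles (2 libraries, labelled Nkx Cre +/-; H1flox/flox) were homozygous for floxed Hand1 and carried 1 Cre allele at Nkx2-5, which is active in cardiac progenitors. Flox controls (2 libraries, labelled Nkx Cre wt; H1flox/flox) had the floxed alleles without Cre. Cre controls (3 libraries, labelled Nkx Cre +/-; wt) had the Cre allele with wild-type Hand1, so the knockout shares the Cre allele with one control group and the floxed alleles with the other. The labels give no litter, so each p-value rests on the spread between these libraries alone, which may be technical in part.

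A ribosome joins a small subunit, which reads the mRNA, to a large subunit, which forms the peptide bond. Each ribosomal protein is used about once per ribosome, apart from the stalk proteins, so their mRNAs are made at similar levels from genes scattered over the genome. Most of these mRNAs begin with a 5' terminal oligopyrimidine (TOP) tract, a cytosine followed by more pyrimidines, through which mTORC1 and Larp1 control their translation. In the embryo the heart is sensitive to ribosome supply, and human mutations in several ribosomal protein genes cause Diamond-Blackfan anaemia, sometimes with heart defects.

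The pyrimidine tract is shown first because it is what most of these mRNAs have in common. The RefSeq promoter set (GRCm38.p6) held 59 of the 80 genes. A run of at least 5 pyrimidines, counted from its first C, began within 20 bases either side of the annotated start in 47 of the 59 (79.7%). The share was 52.1% of 26966 other genes. A run of at least 8 bases was found in 31 (52.5%) against 15.6%. Some runs lay wholly before the annotated start, as in Rpl5 (9 bases, beginning 20 bases before it), so a run need not be part of the mRNA. The windows below are examples that run from 10 bases before to 20 bases after the start, 5' to 3', with the tract in capitals.
Rplp2, chr7:141447641-141447670, plus strand: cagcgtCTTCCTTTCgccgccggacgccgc
Rps24, chr14:24490668-24490697, plus strand: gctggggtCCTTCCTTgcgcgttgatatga
Rps6, chr4:86857348-86857377, minus strand: gaagtcgggCCTCTTTTTCgtgacgcctcc
Rps12, chr10:23787190-23787219, minus strand: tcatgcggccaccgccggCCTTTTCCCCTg
Rpl22l1, chr3:28805498-28805527, plus strand: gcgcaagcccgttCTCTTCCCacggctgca
Rpl7l1, chr17:46782637-46782666, minus strand: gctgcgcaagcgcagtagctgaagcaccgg
The tracts of Rplp2, Rps24 and Rps6 spanned or touched the annotated start, and those of Rps12 and Rpl22l1 began just downstream of it. Rpl7l1, with the lowest level per length among the genes counted above 5 CPM (counts scaled to library size), had no such run in this window. Some abundant genes had no run of 5 bases either, among them Rpl41 and Rpl9, at 741 and 630 CPM per kb in the controls. A link between tract and level was not tested. In the promoter windows of 300 bases, searched on both strands, CCGGAAG occurred in 24 of the 59 genes (40.7%) against 9.86% of the other genes. GGGCGG occurred in 64.4% against 38.1%, TATAAA in 11.9% against 15.7%, and CACGTG in 10.2% against 8.09%. These are matches of letters only, and a gene without a match may still have a variant of the motif.

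Hand1 itself was counted 37 and 19 times in the 2 knockout libraries, 875 and 1272 times in the flox controls, and 2465, 1852 and 2189 times in the Cre controls. Total counts lay between 18975283 in knockout replicate 2 and 28346700 in knockout replicate 1. Knockout replicate 2 differed from the other 6 libraries in this gene family, so the family's calls and medians are also given without it. In that library the summed level of 8 measured erythroid markers was 14217 CPM, against 3026 to 8229 CPM in the others. Hbb-y, an embryonic globin, made up 10857 of those 14217 CPM, and the list's median log2 difference from the Cre control mean was 0.21 there against 0.56 in Cre control replicate 3. The 10 endocardial and endothelial markers summed to 798 CPM against 1341 to 1757, and the 7 epicardial markers to 336 against 333 to 424. The 5 atrial markers summed to 8928 against 4609 to 5786, with a median log2 difference of 0.22 in knockout replicate 2, but they went both ways. Myl4 and Myl7, which are both also on the cardiomyocyte list, made up 4296 and 3903 of those 8928 CPM. In the other libraries Myl4 stood at 2020 to 2542 CPM. Nppa was low in both knockout libraries, at 521 and 706 CPM against 1230 to 1513 in the controls (DESeq2 adjusted p = 0.000678 against flox and 0.000274 against Cre controls, edgeR 0.369 and 0.250). The 14 cardiomyocyte markers summed to 34153 against 33251 to 48616 CPM, but single markers went both ways in knockout replicate 2. Myh7 stood at 1212 against 5372 to 12437 CPM and Actc1 at 3887 against 5703 to 12488, whereas Myl2 stood at 7400 against 3790 to 4981. Myl7, which is also on the atrial list, stood at 2214 and 3903 CPM in the knockout, above every control (1295 to 1889). Myl7 passed DESeq2 against the flox controls (adjusted p = 0.0145, 0.672% of all genes called higher) but not against the Cre controls (0.0966). For Myl7 edgeR gave adjusted p of 0.467 and 0.324. No measured marker of these lists had a count of 0 in any library. The part of these markers in the results below was not tested, and in whole tissue fewer cells of a type and less RNA per cell cannot be told apart.

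In the controls most ribosomal protein genes were abundant, and in the Cre controls they varied little. Their genes lie on 19 chromosomes, with 4 (Rpl10, Rpl36a, Rpl39 and Rps4x) on the X. They are short, with a median summed exon length of 706.5 bases against 2993 bases for all genes, and a median coding length of 456 against 1416 bases. Of the 80, 71 had a mean between 100 and 1000 CPM over the 5 controls (CPM scaled by TMM, a factor that corrects for library composition). Among the 3 Cre controls the median coefficient of variation was 2.93% per ribosomal protein gene, against 7.21% over all genes.

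Per kilobase of exon the highest level was that of Rplp1, a protein of the lateral stalk that recruits translation factors, at 1518 ± 401 CPM per kb (SD, n = 5 controls). Next came Rpl4, a core large-subunit protein, at 994 ± 95, Rps12 at 955 ± 271, Rps15 at 939 ± 189 and Rpl32 at 924 ± 262 CPM per kb. From Rpl4 to Rpl32 neighbours in this order differed by less than their spread. The median gene stood at 409 CPM per kb. Among genes with a mean of at least 5 CPM the lowest were Rps4l at 78.3 ± 10.9, Rps15a at 75.2 ± 22.0 and Rpl7l1 at 36.9 ± 1.4 CPM per kb. Rps15a has a summed exon length of 5134 bases for a coding length of 390 bases, so its value per kb depends on how its exons were annotated.

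Only Rpl30, Rpl34 and Rps27 had a mean below 5 CPM, with 17 to 78 counts per library, although each encodes a protein of every ribosome. In the GENCODE annotation 75 of the 80 genes have at least 1 near-identical copy elsewhere (at least 95% identity over 90% of the coding sequence), with a median of 5. Rpl30 has 12 copies, Rpl34 has 5 and Rps27 has 4, whereas Rpl21 has 56 and was counted at 360 to 641 CPM in the 5 control libraries. How reads that fit several places were counted is not given in the sources used here, so levels of genes with copies are uncertain.

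Ribosomal protein genes took a larger share of all counts in 1 knockout library than in any other library. Their share was 2.90% and 9.65% in the knockout, 4.08% and 2.57% in the flox controls (replicates 1 and 2 in that order here and throughout), and 2.66%, 2.49% and 2.64% in the Cre controls. Knockout replicate 2 was highest, flox control replicate 1 was second, and knockout replicate 1 lay between the 2 flox controls, so the groups overlapped. The mean share was 6.27 ± 4.77% (SD, n = 2) in the knockout and 2.89 ± 0.669% (SD, n = 5) in all controls. This difference of 3.39 percentage points did not pass an exact two-sided permutation test (p = 0.190, where 0.0952 is the smallest p that 2 against 5 libraries can give). Without knockout replicate 2 it was 0.0131 points (exact p = 0.667), and without knockout replicate 1 it was 6.77 points (exact p = 0.333). With 1 library against 5 the smallest p possible is 0.333, so neither of these tests could pass.

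**Figure D1:**
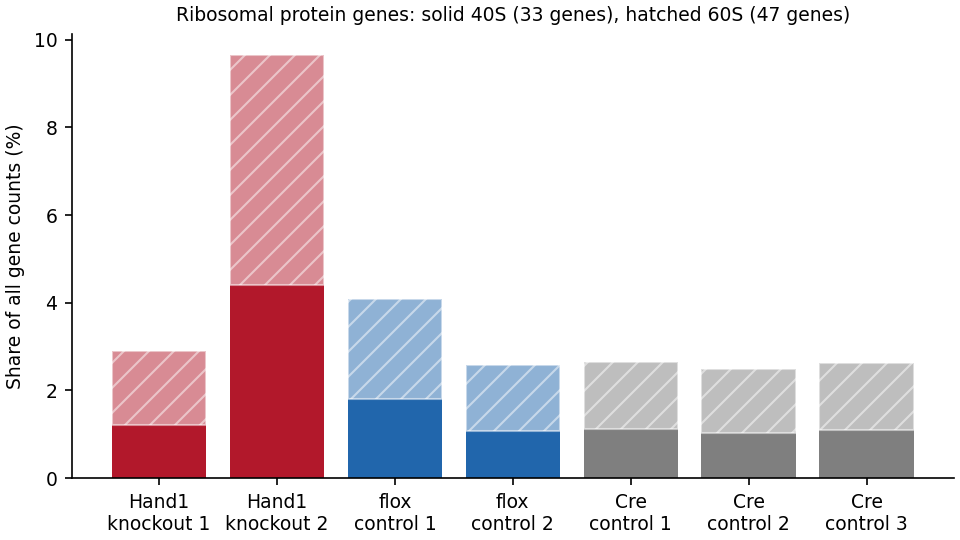
Share of all gene counts (percent) in ribosomal protein genes, one bar per library, with 40S genes solid and 60S genes hatched. Knockout replicate 2 stands at 9.65% and flox control replicate 1 at 4.08%, and the other 5 libraries lie between 2.49% and 2.90%.

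Both subunits took part in this. The 40S genes held 4.40% and the 60S genes 5.25% of the counts in knockout replicate 2, against 1.22% and 1.68% in knockout replicate 1 and 1.11% and 1.54% in Cre control replicate 1. The ratio of 40S to 60S counts was 0.839 in knockout replicate 2 and 0.787 in flox control replicate 1. It lay between 0.717 and 0.726 in the other 5 libraries.

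Gene by gene the pattern was the same in nearly the whole family. Relative to the mean of the Cre controls, the median gene stood at a log2 difference of 0.18 in knockout replicate 1, 2.09 in knockout replicate 2, 0.66 in flox control replicate 1 and -0.00 in flox control replicate 2. As folds these were 1.13, 4.25, 1.58 and 0.997. Knockout replicate 2 was above every other library in 78 of the 80 genes, as it was for 39.0% of all genes. Flox control replicate 1 was above every other control in 77 of the 80, against 34.7% of all genes. Knockout replicate 1 was above every Cre control in 72 (34.9% of all genes) but above flox control replicate 1 in 6 (46.9% of all genes).

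**Figure D2:**
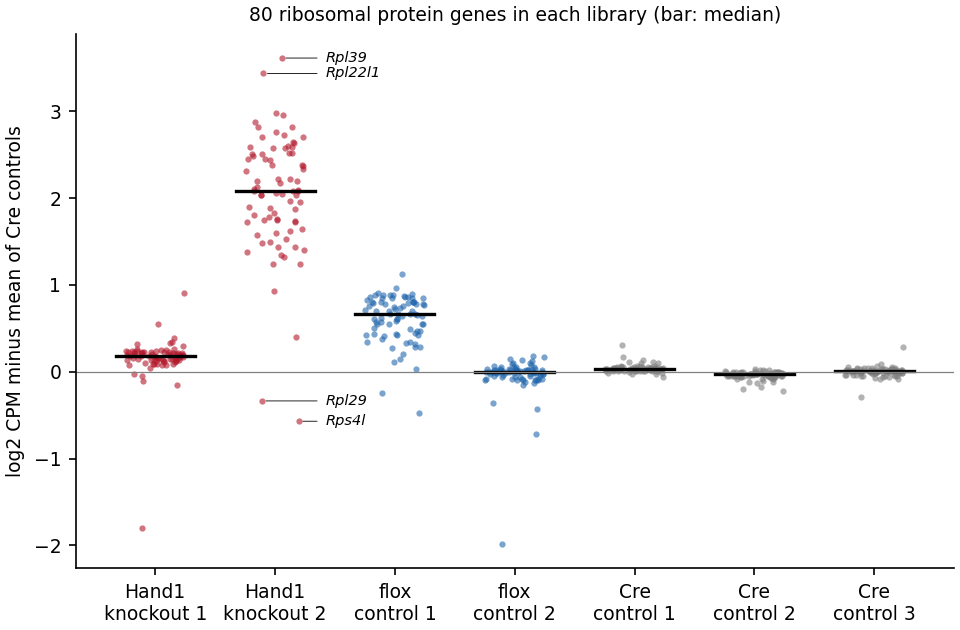
Log2 CPM of each of the 80 genes minus the mean of the Cre controls, one point per gene and library, with the median as a bar. The medians are 0.18 and 2.09 in the knockout, 0.66 and -0.00 in the flox controls and between -0.03 and 0.03 in the Cre controls, and Rpl29 and Rps4l are the genes below 0 in knockout replicate 2.

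In knockout replicate 2 the gene furthest above the Cre controls was Rpl39 (3.61), which encodes a small protein at the nascent peptide exit tunnel. Rpl22l1 (3.44), Rpl36a (2.98), Rps27l (2.95), Rpl35a (2.88) and Rps27a (2.82) followed on the same log2 scale. The lowest were Rps4l (-0.57), Rpl29 (-0.34), Rpl7l1 (0.40), Rpl3 (0.92), Rpl6 (1.24) and Rpl4 (1.24). In flox control replicate 1 Rpl39 was again highest (1.12), followed by Rpl36a (0.96), and Rps4l (-0.47), Rpl29 (-0.25), Rpl7l1 (0.03) and Rpl3 (0.11) were again lowest.

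The comparison of the knockout with the flox controls holds the floxed alleles constant. With all 7 libraries edgeR's quasi-likelihood test called none of the 80 genes at an adjusted p below 0.05, where 0.0146% of all 13695 genes tested were called. The median log2 change of the family was 1.12 against 0.02 over all genes tested, and 79 of 80 had a positive sign. The adjusted p lay between 0.603 and 0.990, and at an unadjusted p under 0.05 edgeR found 0 higher (3.01% of all genes) and 0 lower (5.35%). DESeq2 called 0 (0.672% of all genes higher), with 36 higher at an unadjusted p under 0.05 (7.16% of all genes) and 0 lower (5.96%), and limma-voom called 0 (0% of all genes). Both knockout libraries lay above both flox controls in 5 genes, or 6.25%, against 12.4% of all genes, and below both in 0 (16.3%). Without knockout replicate 2 edgeR again called 0 (0.11% of all genes higher and 0.226% lower), and the median was -0.18. Without knockout replicate 1 it called 77 of 80 higher, with a median of 1.81, where 26.7% of all genes were called higher and 28.4% lower. A fit with a lone knockout library takes its spread from the control groups.

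The comparison with the Cre controls holds the Cre allele constant. Here too edgeR called none of the 80 genes (0.0146% of all genes called), with a median log2 change of 1.43 and adjusted p between 0.318 and 0.673. At an unadjusted p under 0.05, 64 of 80 were higher, against 8.67% of all genes, and 0 lower (6.73%), and limma-voom called 0 (0.0146%). At that level DESeq2 found 76 higher (15.2%) and 0 lower (7.94%). After adjustment DESeq2 called 2 higher (1.59% of all genes), Rpl39 with a log2 change of 2.75 ± 0.83 (SE, DESeq2 adjusted p = 0.0305) and Rpl22l1 with 2.57 ± 0.83 (DESeq2 adjusted p = 0.0473). Without knockout replicate 2 DESeq2 called neither, with log2 changes of 0.09 for Rpl39 (DESeq2 adjusted p = 0.966) and -0.09 for Rpl22l1 (DESeq2 adjusted p = 0.964). Both knockout libraries lay above all Cre controls in 71 genes, or 88.8%, against 16.4% of all genes, and below them in 1, Rpl29 (18.9%). The authors' deposited table listed 59 of the 80 as higher at a false discovery rate below 0.05, where 6.8% of all genes were, and 0 as lower (3.71% of all genes). The authors' deposited table gave Rpl39 a log2 change of 2.69, Rpl22l1 2.51, Rps27l 2.11 and Rplp1 1.95. Without knockout replicate 2 edgeR called 0 (0.204% of all genes higher and 0.256% lower) and the median was 0.20. Without knockout replicate 1 it called 78 higher and Rps4l lower, where 31.9% and 32.4% of all genes were called, and the gene that did not pass was Rpl29.

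Against all 5 controls, both knockout libraries were above every control in Rpl3, Rpl7a, Rpl7l1, Rpl8 and Rpl30, which is 6.25% of the family against 8.19% of all genes, and no member was below every control (11.6%). Rpl3 and Rpl8 are large-subunit proteins near the peptidyl transferase centre. Rpl8 stood at 761 and 1627 CPM in the knockout, 711 and 612 in the flox controls and 671, 648 and 606 in the Cre controls. Against the flox controls Rpl8 had a log2 change of 0.85 ± 0.39 (SE, edgeR adjusted p = 0.603), and it was 0.90 ± 0.34 (edgeR adjusted p = 0.324) against the Cre controls. The separation of knockout replicate 1 from flox control replicate 1 in this gene was 761 against 711 CPM.

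Between the 2 control groups edgeR called 0 of the 80 genes (0% of all genes), with a median log2 change of 0.36 and adjusted p of 0.999 for each. DESeq2 called 0 (0.394% of all genes higher) and limma-voom 0 (0%). At an unadjusted p under 0.05 edgeR found 0 higher (1.98% of all genes) and 0 lower (1.15%), and DESeq2 0 higher (2.27%) and 0 lower (1.72%). The flox controls lay above every Cre control in 19 genes (17% of all genes) and below every Cre control in 2 (17.2%). Without flox control replicate 1 the median was -0.01, and without flox control replicate 2 it was 0.63.

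The lateral stalk was measured through Rplp0, which anchors it, and Rplp1 and Rplp2, which bind elongation factors. Rplp1 stood at 709 and 4277 CPM in the knockout, at 1046 and 609 in the flox controls, and at 638, 634 and 625 in the Cre controls. Knockout replicate 2 was far above all others, and flox control replicate 1 was the only other library above 1000 CPM. The log2 change of Rplp1 was 1.59 ± 0.78 (SE, edgeR adjusted p = 0.603) against the flox controls and 1.98 ± 0.69 (edgeR adjusted p = 0.324) against the Cre controls, and without knockout replicate 2 these were -0.21 and 0.19. Rplp0 differed less, with 935 and 2319 CPM in the knockout, 1050 and 807 in the flox controls and 833 to 885 in the Cre controls. Rpsa, a small-subunit protein also known as a laminin receptor precursor, stood at 707 and 2691 CPM in the knockout, 853 and 592 in the flox controls and 632 to 636 in the Cre controls. None of the 4 genes passed edgeR or DESeq2 in any comparison with all libraries.

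Genes with a paralog in the same family differed between libraries by unequal amounts. Rpl22, which binds RNA outside the ribosome as well, stood at 358 and 1764 CPM in the knockout, 500 and 336 in the flox controls and 297 to 315 in the Cre controls. Its paralog Rpl22l1 stood at 65.5 and 764 CPM in the knockout, 130 and 71.1 in the flox controls and 79.7, 61.4 and 71.8 in the Cre controls. In knockout replicate 1 Rpl22l1 lay within the range of the Cre controls, and knockout replicate 2 alone set it apart. The log2 change of Rpl22l1 against the Cre controls was 2.55 ± 0.89 (SE, edgeR adjusted p = 0.324) with all libraries, -0.09 without knockout replicate 2 and 3.43 without knockout replicate 1.

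Rps27l, a paralog of Rps27 that p53 induces in human cells, stood at 76.6 and 550.5 CPM in the knockout, 120.1 and 63.9 in the flox controls and 77.8, 65.7 and 70.1 in the Cre controls. Rpl39 stood at 90.6 and 1055 CPM in the knockout, 188 and 94.7 in the flox controls and 92.2, 76.0 and 91.4 in the Cre controls. Knockout replicate 1 was within the Cre control range in both genes. Rpl7 had 625 and 2197 CPM in the knockout and 995 and 590.4 in the flox controls, while Rpl7l1, whose yeast relative acts in ribosome assembly, had 106 and 128 in the knockout, 99.2 and 91.1 in the flox controls and 95.3, 95.6 and 100.1 in the Cre controls. Rpl7l1 was thus nearly level across the 7 libraries, and its log2 change of 0.27 ± 0.17 (SE) against the Cre controls did not pass edgeR (adjusted p = 0.397).

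Rps4x, on the X chromosome, stood at 550 and 1403 CPM in the knockout, 791 and 505 in the flox controls and 488 to 505 in the Cre controls. Rps4l, for which GENCODE lists no protein-coding transcript, went the other way, with 86.5 and 53.2 CPM in the knockout, 56.9 and 74.4 in the flox controls and 84.4, 78.0 and 74.8 in the Cre controls. The libraries highest for the rest of the family, knockout replicate 2 and flox control replicate 1, were the 2 lowest for Rps4l. The genes Rpl3l, Rpl39l and Rpl10l were not among the 80 that the name rule found in the deposited count table.

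**Figure D3:**
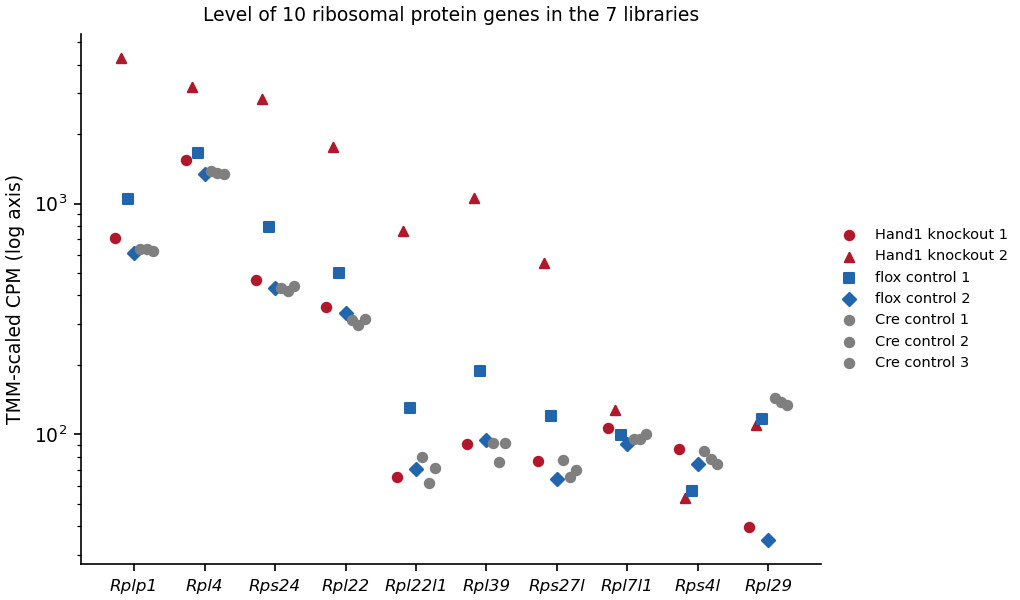
TMM-scaled CPM (log axis) of 10 ribosomal protein genes, one point per library, coloured by group. Knockout replicate 2 (triangles) is highest in 8 genes, from 4277 CPM for Rplp1 to 128 CPM for Rpl7l1, it is lowest for Rps4l, and for Rpl29 the highest points are the Cre controls.

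Rps27a, which is made as a fusion with ubiquitin, stood at 354 and 2270 CPM in the knockout, 601 and 322 in the flox controls and 310.2 to 330.0 in the Cre controls. Rpl5 and Rpl11 form a particle with 5S ribosomal RNA that can bind Mdm2 and stabilise p53. Rpl5 stood at 385 and 1213 CPM in the knockout and 551 and 367 in the flox controls, and Rpl11 at 310.3 and 1355 and at 448 and 245 CPM. Over that particle and 3 other proteins reported to bind Mdm2 (Rpl23, Rps3 and Rps7) the median log2 change was 1.15 against the flox controls and 1.43 against the Cre controls, and without knockout replicate 2 it was -0.24 and 0.11. None of these 5 passed edgeR or DESeq2.

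Of 14 genes mutated in human Diamond-Blackfan anaemia 13 were measured, and 0 passed edgeR or DESeq2. Their median log2 difference from the Cre controls was 0.18 and 2.20 in the knockout and 0.67 and -0.02 in the flox controls. Rps19, the first of these genes to be found, stood at 223 and 887 CPM in the knockout, 305 and 191 in the flox controls and 187 to 198 in the Cre controls. Rps24 stood at 468 and 2850 CPM in the knockout, 789 and 432 in the flox controls and 419 to 438 in the Cre controls. The 6 genes studied for selective translation (Rpl10a, Rpl13a, Rpl38, Rps6, Rps14 and Rps25) had medians of 0.20 and 2.51 in the knockout and 0.85 and 0.02 in the flox controls. Rpl38, which promotes translation of Hox mRNAs in the mouse embryo, stood at 106 and 503 CPM in the knockout, 151 and 88.4 in the flox controls and 79.8 to 86.0 in the Cre controls. Rps6, the substrate of S6 kinase, differed less, with 258 and 609 CPM in the knockout, 313 and 233 in the flox controls and 229 to 237 in the Cre controls.

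Members with a shorter coding length stood further above the Cre controls in knockout replicate 2 and flox control replicate 1. Across the 79 genes with a coding length, Pearson's r between log2 coding length and the log2 difference was -0.52 in knockout replicate 2 and -0.53 in flox control replicate 1 (Spearman's rho -0.59 and -0.58). It was -0.10 in knockout replicate 1 and -0.13 in flox control replicate 2 (rho -0.27 and -0.38). With summed exon length, over 80 genes, r was weaker, at -0.29 in knockout replicate 2 and -0.27 in flox control replicate 1 (rho -0.38 and -0.33). With GC content r was -0.29 and -0.41 in these libraries (rho -0.23 and -0.38). Genes share a library and are not independent, so these are descriptions. The 10 members with a coding length under 300 bases had a median log2 difference of 2.48 in knockout replicate 2, and other genes at 50 CPM or more had 1.75 (101 genes). The 17 members from 300 to 400 bases had 2.64, and the 13 members from 700 to 1000 bases had 1.49.

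Short genes of other kinds also stood above the Cre controls, at lower values. In knockout replicate 2, other genes at 50 CPM or more had a median of 1.43 (125 genes) from 300 to 400 bases and 0.28 (505 genes) from 700 to 1000 bases, and -0.52 (3326 genes) from 1000 bases upward. By summed exon length below 500 bases, the 16 members had a median of 2.55 and 31 other genes at 50 CPM or more had 2.51, so in that class both stood at nearly the same level. In each longer class the members stood higher. From 500 to 700 bases the medians were 2.19 (23 members) and 1.74 (76 other genes), and from 700 to 1000 bases 1.76 (23 members) and 1.27 (140 other genes). From 1000 to 1500 bases they were 1.70 (10 members) and 0.76 (287 other genes). From 1500 to 2500 bases they were 2.08 (6 members) and 0.08 (812 other genes), and from 2500 bases upward 1.52 (2 members) and -0.43 (3392 other genes).

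**Figure D4:**
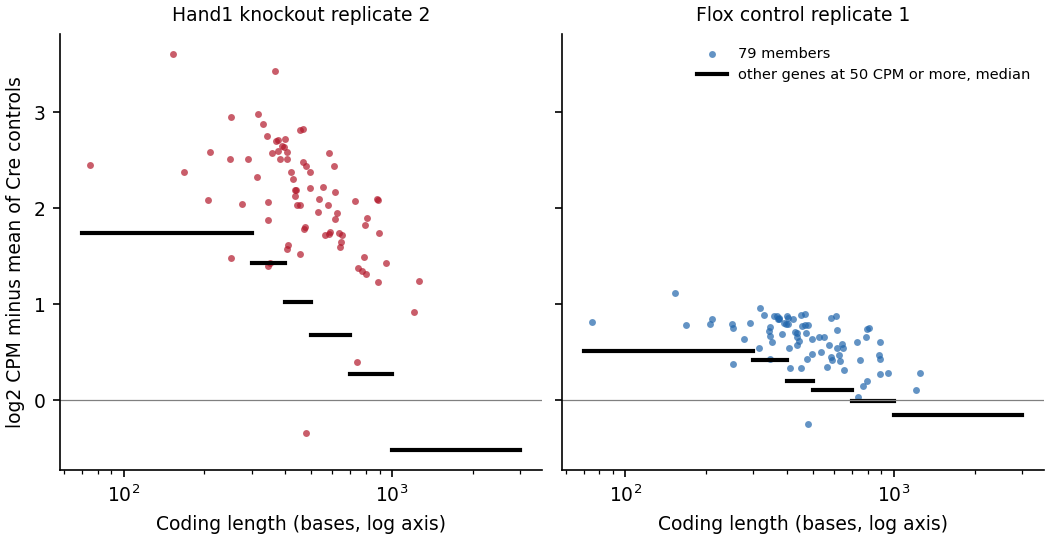
Log2 CPM minus the mean of the Cre controls against coding length (log axis) in knockout replicate 2 and flox control replicate 1, one point per ribosomal protein gene, with the median of other genes at 50 CPM or more as black bars over each length class, the last of which holds all lengths from 1000 bases. In both libraries points and bars are lower at greater lengths. In knockout replicate 2 the members' median is 2.48 under 300 bases, then falls from 2.64 at 300 to 400 bases to 1.49 at 700 to 1000 bases.

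When a smooth trend with summed exon length, fitted in each library without the ribosomal protein genes, was taken out, the family's median log2 change was 0.29 against the flox controls and 0.45 against the Cre controls. With length and GC content it was 0.34 and 0.47, and with coding length, an alternative added after the data were seen, 0.62 and 0.80. edgeR called 0 members in each of these fits. Length and the libraries that stand apart move together here, and the part of length in the result was not tested further.

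The difference between the 2 knockout libraries resembled that between the 2 flox controls, although no library is shared between them. Knockout replicate 2 was above replicate 1 in 79 of the 80 genes, by a median of 3.74-fold, and flox control replicate 1 was above replicate 2 in 79, by a median of 1.59-fold. In both cases Rps4l was the exception. Across the 80 genes these 2 log2 differences had r = 0.70 (Spearman's rho 0.82), and across 13615 other genes r = 0.61 (rho 0.76). Without Rpl29 the members' r was 0.82. Genes differ in length and GC content in both comparisons, and they are not independent points.

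**Figure D5:**
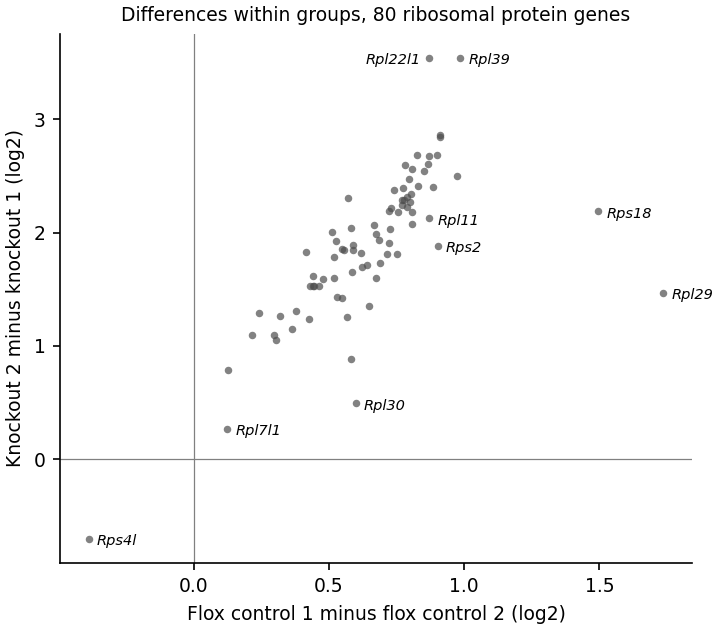
Log2 difference of knockout replicate 2 from replicate 1 against that of flox control replicate 1 from replicate 2, one point per ribosomal protein gene (n = 80). The points form a rising band (r = 0.70), Rps4l is the point below 0 on both axes, and Rpl29 and Rps18 lie to the right of the others.

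Rpl29, a large-subunit protein, departed from the family in another way. It was measured at 39.5 and 109 CPM in the knockout, 116 and 34.9 in the flox controls, and 143, 138 and 134 in the Cre controls. The 3 libraries whose identifiers in the labels begin with NT (both knockout libraries and flox control replicate 2) were the 3 lowest. Rpl29 was the only member with these 3 below every other library (1.25% against 2.59% of all genes), and no member had them above (2.08% of all genes). Rpl29 had a log2 difference of -0.02 ± 0.65 (SE, edgeR adjusted p = 0.990) relative to the flox controls and -0.89 ± 0.61 (edgeR adjusted p = 0.428) relative to the Cre controls, and neither value passed. Within the NT libraries alone the change against flox control replicate 2 was 1.10 (edgeR adjusted p = 1.00). Rpl29 has 27 near-identical copies in the annotation, so its counts are uncertain.

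Flox control replicate 2 was also low for Rps18, at 175 CPM against 493 in flox control replicate 1, 259 in knockout replicate 1 and 282 to 291 in the Cre controls. Rps2 stood at 412 CPM in that library against 536 to 575 in the Cre controls, and Rpl11 at 245 against 304 to 324. Their log2 differences from the Cre controls there were -0.72, -0.43 and -0.36, while the family's median was -0.00. These 3 genes were singled out after their values were seen.

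The surrounding pathway was read from further gene lists. Of 24 measured TOP mRNAs and translation factors outside the family, edgeR called 0 and DESeq2 called 1, Eef1d, a subunit of the elongation factor exchange complex, higher against the flox controls (log2 0.61, DESeq2 adjusted p = 0.0137; 0.672% of all genes called higher), also without knockout replicate 2 (0.51, DESeq2 adjusted p = 0.0378). The list's median log2 difference was 0.14 and 1.10 in the knockout and 0.24 and -0.01 in the flox controls. Tpt1, the translationally controlled tumour protein with a summed exon length of 894 bases, stood at 734 and 4138 CPM in the knockout and 1343 and 769 in the flox controls. Eef2, an elongation factor of 3100 bases, stood at 3015 and 2919 and at 2436 and 2651 CPM, so Eef2 in knockout replicate 2 was within the range of the other libraries.

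Of 53 ribosome biogenesis genes, edgeR called 0 and DESeq2 called Rrp9 against the flox controls (log2 0.73, DESeq2 adjusted p = 0.0326; 0.672% of all genes called higher) and Polr1c against the Cre controls (log2 0.79, DESeq2 adjusted p = 0.0409; 1.59% of all genes called higher), both higher. Without knockout replicate 2 the list's median log2 change in DESeq2 was 0.28 against the flox controls, with Rrp9 at 0.78. Over all genes tested that median was -0.03. Against the Cre controls the list's median was then 0.17, with Polr1c at 0.47. Rrp9 acts in ribosomal RNA processing and Polr1c is a subunit of RNA polymerases I and III. The median log2 difference of this list was 0.15 and 0.02 in the knockout and -0.16 and -0.08 in the flox controls. In knockout replicate 2 the genes of this list, with a median length of 2654 bases, went both ways, with Nop58 at 1.20, Polr1c at 1.03 and Ncl at -0.15.

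With all 7 libraries edgeR called 0 of 21 Myc and mTORC1 pathway genes. DESeq2 called 1, Eif4ebp1, the translation repressor that mTORC1 phosphorylates, higher against the Cre controls (log2 0.73, DESeq2 adjusted p = 0.0370, 1.59% of all genes called higher). Without knockout replicate 2 it did not pass (0.50, DESeq2 adjusted p = 0.140). The list's median log2 difference was 0.05 and -0.61 in the knockout and -0.06 and -0.04 in the flox controls. Larp1, which binds TOP tracts, has a summed exon length of 6615 bases. Larp1 stood at log2 differences of 0.10 and -1.36 in the knockout and -0.48 and -0.07 in the flox controls. In knockout replicate 2, genes outside the family of 2500 bases or more and at 50 CPM or more had a median of -0.43. With all 7 libraries neither test called any of 18 p53 pathway genes. Their median log2 differences were -0.03 and 0.36 in the knockout and 0.02 and -0.06 in the flox controls. Without knockout replicate 2 their median log2 change in edgeR was -0.11 against the flox controls and -0.02 against the Cre controls. Ccng1, a cyclin induced by p53, stood at 201 and 777 CPM in the knockout, 403 and 249.9 in the flox controls and 251 to 270.2 in the Cre controls. Mdm2, the p53 ubiquitin ligase, stood at 79.4 and 119 CPM in the knockout, 92.4 and 76.5 in the flox controls and 76.5 to 80.1 in the Cre controls.

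Other families of short genes shared part of the pattern. The 77 mitochondrial ribosomal protein genes had median log2 differences of 0.21 and 1.08 in the knockout and 0.17 and -0.12 in the flox controls. The 90 nuclear-encoded oxidative phosphorylation subunits had 0.18 and 1.45, and 0.38 and -0.11. Their median summed exon lengths were 1053 and 756 bases, against 706.5 for the cytosolic ribosomal proteins.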

How the data were processed

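Per the labels' protocols, ventricles were kept in RNA-stabilising solution until RNA isolation and library construction. Per the submitters' processing notes, the tools were Subread 1.5.0, featureCounts, edgeR and STAR 2.4.2a, and the build was mm10. Annotation, strand use and settings are not given in the sources used here. The authors deposited raw counts per gene with summed exon lengths. The authors' deposited table also gives log2 fold changes and p-values with false discovery rates (knockout relative to Cre controls).

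Here edgeR 4.0.16 (quasi-likelihood, TMM, filterByExpr, robust) in R 4.3.3 fitted 1 mean to each group of the 7 libraries. It tested 13695 genes, with Benjamini-Hochberg adjustment at 0.05. For log2 CPM the prior count was 2. DESeq2 1.42.0, limma 3.58.1 voom, other scalings and filters, length and GC trends (mgcv 1.9.3) and leaving out each library were alternatives. The script was tested on simulated data. Coding lengths and copies came from GENCODE. Without scaling the median of all genes moved to -0.11 (knockout relative to flox controls) and -0.10 (relative to Cre controls). Genes near 1 CPM rest on few counts.

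Members and lists were chosen with earlier results of these data known. Named were, per comparison, the 5 members highest and 5 lowest in log2 change, the 5 highest and lowest per kb, the role lists, and from other lists the called or the 3 most abundant genes.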

Additional observations from a re-analysis of the deposited data

How the results depend on the processing

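No paired analysis was possible because the labels give no replicate numbers that the groups share. The DESeq2 fits without 1 library or with trends, and the coding length trend, were chosen after seeing the data. Leaving out 1 library at a time, the number of members called by edgeR ranged from 0 to 77 against flox controls and from 0 to 79 against Cre controls (DESeq2 0 to 76 and 0 to 79), with the highest counts without knockout replicate 1. The median log2 change ranged from -0.18 to 1.81 against flox controls (DESeq2 -0.17 to 1.84), from 0.20 to 2.09 against Cre controls (DESeq2 0.20 to 2.11) and from -0.014 to 0.63 between the controls (DESeq2 -0.0074 to 0.65), lowest without knockout replicate 2 and, between the controls, without flox control replicate 1. The share difference ranged from 0.0131 to 6.77 points. Against Cre controls DESeq2 called 2 members, 2 with a length trend and 3 with length and GC trends, with medians of 0.45 and 0.44, and edgeR with these trends gave 0.45 and 0.47. The cause was not tested.

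Of 30 values of single genes, 178 of 210 without 1 library and 325 of 340 under other settings kept their direction and side of the threshold. Without 1 library, values that changed sign against flox controls ranged from -0.60 to 2.93 for Rpl22l1, -0.63 to 2.90 for Rpl39, -0.45 to 2.4 for Rpl36a, -0.25 to 2.58 for Rps27l, -0.21 to 2.37 for Rplp1, -0.22 to 1.11 for Rps4x, -0.92 to 1.10 for Rpl29 and -0.30 to 0.41 for Rps4l. Against Cre controls Rpl22l1 ranged from -0.093 to 3.43 and Rps4l from -0.57 to 0.15. Between the controls Rpl3 ranged from -0.029 to 0.073 and Rpl8 from -0.078 to 0.11. Against flox controls Rpl29 was 0.0077 with RLE scaling, 0.0084 with DESeq2, 0.080 with voom and 1.10 in the NT libraries. Rps4l was -0.027 without scaling, -0.21 and -0.16 with length and with length and GC trends and -0.081 in the NT libraries, and Rps4x was -0.011 and -0.06 with these trends. Between the controls Rpl7l1 was 0.0099 without scaling and 0.028 with length and GC trends, and Rpl8 was -0.063 with length. Depth limits Rpl30, Rpl34 and Rps27, with at most 78 counts per library.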

Other observations

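Fau, Rpl36al and Rpl37rt, ribosomal protein genes that the name rule does not match, were also highest in knockout replicate 2 and next highest in flox control replicate 1. Fau, which encodes a ubiquitin-like fusion of a small-subunit protein, stood at 158 and 576 CPM in the knockout, 198 and 135 in the flox controls and 130 to 146 in the Cre controls. Rpl36al and Rpl37rt had log2 differences from the Cre controls of 1.90 and 2.45 in knockout replicate 2 and of 0.62 and 0.84 in flox control replicate 1. None of these 3 passed edgeR or DESeq2.

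A different pattern, singled out after its values were seen, was that of Rpl14-ps1, a pseudogene of Rpl14 at chr7:45324958-45325651. It was counted 685 and 1134 times in the knockout and 721 and 570 times in the flox controls, but 128, 134 and 105 times in the Cre controls, so every library with floxed Hand1 lay above every Cre control. Its log2 difference between flox and Cre controls was 2.44 ± 0.44 (SE, edgeR adjusted p = 0.684), and DESeq2 gave 2.43 ± 0.47 (adjusted p = 0.000186). Rpl14 itself lies on chromosome 9 and stood at 404 and 1239 CPM in the knockout, 465 and 343 in the flox controls and 359 to 390 in the Cre controls. Among the 80 members, 18 had all 4 floxed libraries above every Cre control (4.45% of all genes) and 1 had them below (5.51% of all genes).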
